A study of Mus musculus with 12 samples.

Results

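The genes examined here are 10 angiogenic growth factors and VEGF receptors expressed, or looked for, in mouse bone marrow macrophages: Vegfa, Vegfb, Vegfc and Pgf of the VEGF family, the VEGF receptor Flt1, the co-receptors Nrp1 and Nrp2, and the growth factors Pdgfa, Pdgfb and Hbegf. They were chosen by gene symbol. Each symbol matched 1 row of the deposited tables, so that all 10 were found among 54532 annotated genes. The cells were grown from the bone marrow of wild-type C57BL/6J mice aged 2 to 3 months and differentiated with CSF-1 in 15% fetal calf serum. They were passaged onto plain culture plates or onto plates coated overnight with fibronectin, the matrix ligand of the integrin that contains ITGA5 (integrin α5), and grown until confluent. They were then incubated for 24 h with 10 µg/ml of control IgG or of a neutralizing anti-ITGA5 antibody. This gave 4 groups of 3 libraries, in which cells on plain plates received IgG or anti-ITGA5 and cells on fibronectin likewise. All 12 libraries hold poly-A RNA of whole cultures, in which fewer cells of a type and less RNA per cell cannot be told apart. Every group received serum, which also contains fibronectin, and an antibody, so no group is untreated. The labels do not say whether replicates came from separate animals. The study calls the experiments of each group biologically independent, and p-values measure the spread between these libraries.

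VEGFA is the main growth factor that drives sprouting of endothelial cells. It binds the receptor tyrosine kinases Kdr and Flt1 on those cells, with neuropilins as co-receptors, whereas VEGFB and PGF bind Flt1 and VEGFC acts mainly on lymphatic endothelium through Flt4. PDGF ligands recruit pericytes and fibroblasts to new vessels, and HB-EGF is a membrane-anchored ligand of the EGF receptor family that is shed by proteases. Macrophages are a known source of these ligands in healing tissue. Whether macrophage ITGA5 controls VEGFA alone or the wider set of angiogenic factors is the question that the comparison of the members addresses.

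The start regions of Vegfa and Vegfb are shown because they belong to VEGF ligands of which only the first passed the test upon ITGA5 neutralization. Each sequence is the 250 bases before a RefSeq start on the minus strand of GRCm38.p6, read 5′ to 3′, and overlaps no gene of the GENCODE annotation. Vegfa has 2 entries in the RefSeq table, of which the upstream start is printed, since the window of the other (chr17:46025164-46025413) lies within the gene. The printed Vegfa sequence is chr17:46032378-46032627 and the Vegfb sequence is chr19:6987652-6987901. Capitals mark the letters GGGCGG, the core of a GC box, on either strand.
Vegfa: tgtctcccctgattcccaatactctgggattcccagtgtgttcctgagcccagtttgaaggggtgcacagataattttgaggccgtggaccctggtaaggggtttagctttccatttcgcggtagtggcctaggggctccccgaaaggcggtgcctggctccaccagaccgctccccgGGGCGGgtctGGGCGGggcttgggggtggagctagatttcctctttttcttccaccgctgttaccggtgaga
Vegfb: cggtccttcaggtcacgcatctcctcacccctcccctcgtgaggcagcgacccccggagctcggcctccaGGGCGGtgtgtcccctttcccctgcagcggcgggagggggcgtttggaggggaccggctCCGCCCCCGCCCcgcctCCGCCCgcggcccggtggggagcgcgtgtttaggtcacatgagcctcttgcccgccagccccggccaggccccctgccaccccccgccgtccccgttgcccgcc
The printed Vegfa region held 2 GC boxes and the Vegfb region held 4, counting overlapping matches. A GC box stood in 32.7% of all 32851 RefSeq start regions of this length. The letters ACGTG or GCGTG, a core shared by hypoxia response elements, had 0 matches on either strand of the printed Vegfa region and 2 in the Vegfb region, against 38.6% of all start regions with at least 1. The start region inside Vegfa, which overlaps an exon of that gene, held 2 of these cores and 1 GC box, so the count for Vegfa depends on the start that is taken. Bases outside these windows were not searched, and a count of 0 says nothing about them. TGACTCA, the AP-1 letters, was in none of the 3 regions and in 4.46% of all. These matches are descriptions of the letters, and 8 of the 10 genes had an entry in the RefSeq table. Pdgfb and Hbegf had none.

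Count totals were 12954342 to 22075432 per library. Levels are given in FPKM, fragments scaled by transcript length and library depth. The macrophage markers Csf1r, Adgre1 and Cd68 were present in every library, where Csf1r ranged from 269 to 333 FPKM, Adgre1 from 155 to 184 and Cd68 from 929 to 1180. Of the 7 neutrophil markers, Ly6g had 0 counts in all 12 libraries, S100a8 had 17 to 44, Mpo 3 to 21 and S100a9 up to 13, and the summed level of the list was 1.86 to 4.52 FPKM. Of the 5 lymphocyte markers, Cd3d had 0 counts and Cd79a 2 to 13, and the sum was 0.123 to 0.481 FPKM. Among endothelial genes, Cldn5 had at most 2 counts, Emcn at most 3 and Cdh5 between 18 and 51. The summed level of the 9 endothelial markers was 8.68 to 9.25 FPKM in IgG and 8.48 to 9.80 in anti-ITGA5 without fibronectin, and 9.15 to 10.2 and 7.86 to 9.10 with fibronectin. Most of it was Vwf and Kdr. Libraries were compared pair by pair within groups, and no pair agreed within sampling noise; the anti-ITGA5 libraries without fibronectin differed most from each other.

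The members spanned a wide range of levels. In IgG without fibronectin, Nrp2 and Nrp1 averaged 87.0 and 80.3 FPKM, followed by Vegfa at 41.1, Vegfb at 17.1, Pdgfb at 12.3, Pdgfa at 6.34, Hbegf at 2.95, Flt1 at 0.0946, Pgf at 0.0592 and Vegfc at 0.0232. Vegfa was above 95.2% of the 23520 genes with a value in that group. The libraries of each gene were separate from those of the next in this order except for Flt1 against Pgf and Pgf against Vegfc. With IgG and fibronectin the order was the same, but the libraries of Vegfb and Pdgfb overlapped. Macrophages in these cultures therefore held transcripts of the co-receptors Nrp1 and Nrp2 at higher levels than of any ligand among the 10 genes, and almost none of Flt1, Pgf or Vegfc.

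**Figure D1:**
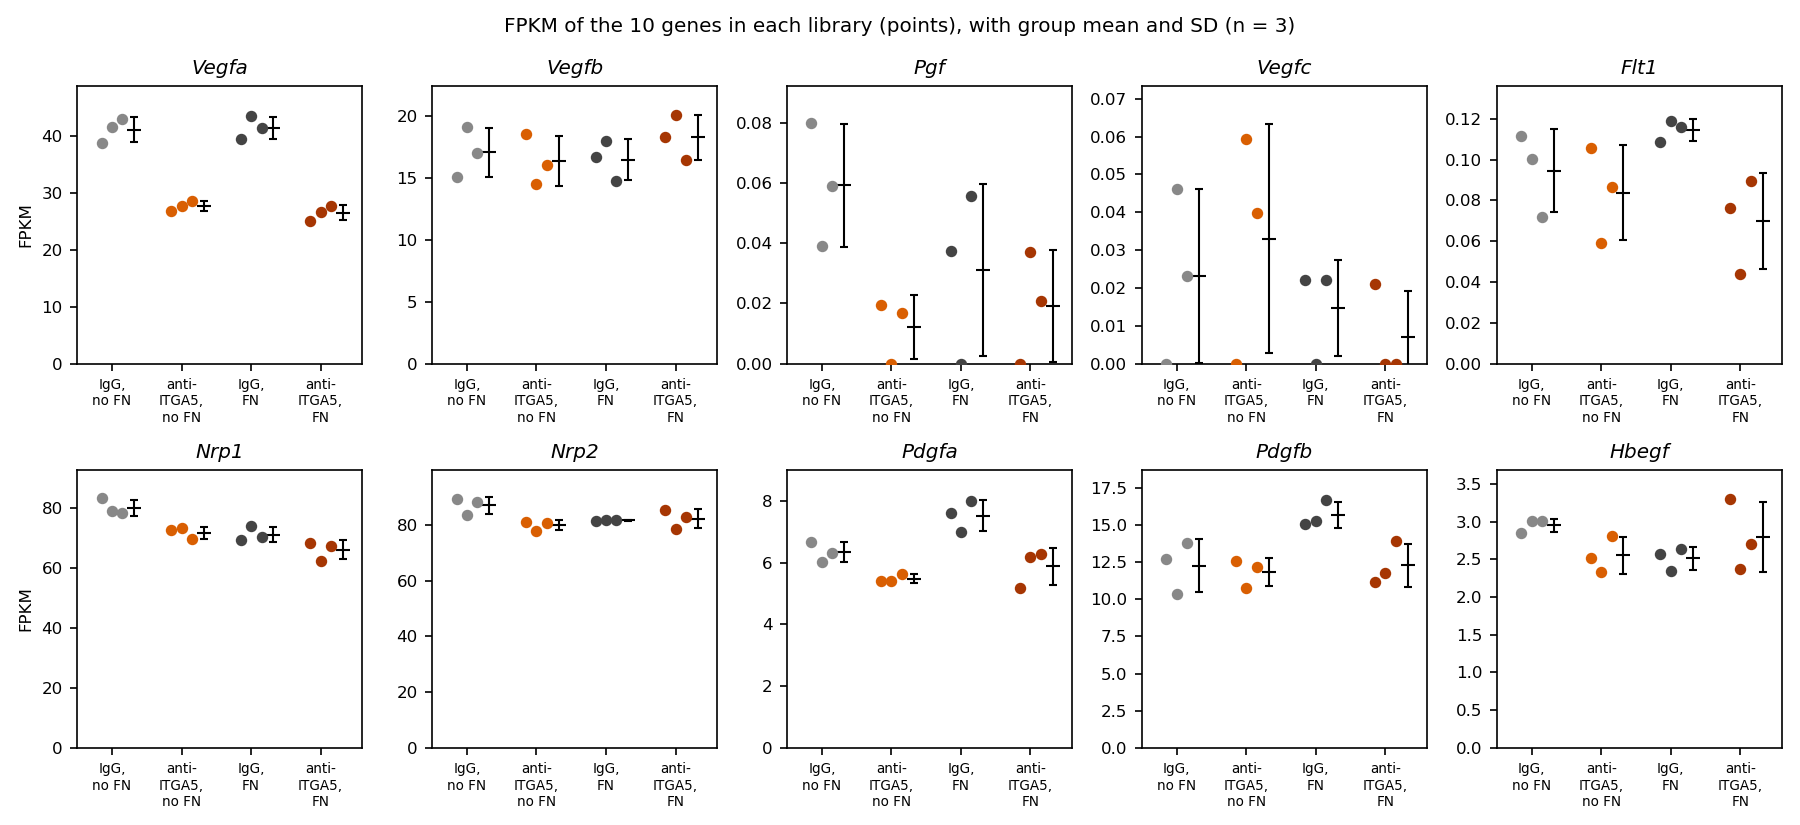
FPKM (vertical axes, from 0, a separate scale for each gene) of the 10 genes in the 4 groups (horizontal axes; FN, fibronectin). Points are libraries, and the bar beside them is the group mean with its SD (n = 3). Vegfa lay between 25.1 and 28.6 FPKM in the 6 anti-ITGA5 libraries and between 38.7 and 43.4 in the 6 IgG libraries, whereas the groups of Vegfb overlapped.

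Upon ITGA5 neutralization without fibronectin, Vegfa was the member called lower, at 0.675 of its level in IgG. Nrp1 was called as well in some alternatives, among them DESeq2 and the fit without anti-ITGA5 without fibronectin replicate 2. Among the 8 members with enough counts for the test, 1 was lower and 0 were higher with an adjusted p at or under 0.05, against 9.79% of all 12924 genes lower and 11.0% higher. With fibronectin, Vegfa, Pdgfa and Pdgfb fell, 3 of 8 lower and 0 higher, against 13.2% of 12916 genes lower and 14.4% higher. The members' median log2 fold change was -0.15 without fibronectin and -0.23 with it, where the median of all genes tested was 0.0090 and -0.0038. Pgf and Vegfc were removed by edgeR's filter on counts and have no edgeR value.

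Vegfa (ENSMUSG00000023951, minus strand of chromosome 17, positions 46016993 to 46032369 of GRCm38) encodes the ligand that the other members are compared with. In IgG without fibronectin its FPKM were 38.7, 41.6 and 43.0. In anti-ITGA5 without fibronectin they were 26.7, 27.6 and 28.6. With fibronectin they were 39.4, 43.4 and 41.3 in IgG and 25.1, 26.7 and 27.7 in anti-ITGA5. Every antibody library was below every IgG library, and the levels of each treatment were alike on either surface. The log2 fold change was -0.57 (standard error, SE, 0.0566 and adjusted p = 7.6e-05) without fibronectin and -0.65 (SE 0.0514, adjusted p = 4.2e-06) with it. Genes of the cell cycle moved in the other direction in the same libraries: 5 of 5 proliferation markers were higher on each surface, their summed level going from 82.9 to 109 FPKM in IgG up to 216 to 261 in anti-ITGA5 without fibronectin, and from 79.1 to 110 up to 201 to 265 with it. Of the 9 macrophage markers 4 were lower on each surface (Cd68, Mertk, Lyz2 and Itgam) and 0 higher, with a summed level of 10710 to 11588 FPKM in IgG and 7487 to 9210 in anti-ITGA5 without fibronectin, and of 11337 to 11523 and 9060 to 9218 with it. Most of that sum and of its fall was Lyz2, with means of 7514 and 5256 FPKM without fibronectin and 7809 and 5691 with it. Csf1r, Adgre1, C1qa, C1qb and C1qc were not called on either surface. Of 4 tested megakaryocyte markers 2 were lower (Pf4 at -0.38 and, with fibronectin, -0.33, and Ppbp at -1.19 and -0.98) and Gp1ba, with at most 16 counts, was higher on each surface. The summed level of that list, nearly all of it Pf4, was 516 to 638 FPKM in IgG and 362 to 497 in anti-ITGA5 without fibronectin, and 545 to 699 and 495 to 511 with it. Among endothelial markers Vwf was lower with fibronectin (-0.30, adjusted p = 0.00200) and did not pass without it. Of the neutrophil markers 0 of 1 tested was called without fibronectin and 1 of 2 with it (Mpo, with 3 to 21 counts, at -0.94, adjusted p = 0.0499), the list's summed level being 2.41 to 4.23 FPKM in IgG and 2.65 to 3.70 in anti-ITGA5 without fibronectin, and 3.02 to 4.52 and 1.86 to 3.00 with it. The part of any of these shifts in the fall of Vegfa, or of the other members, was not tested.

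Vegfb (ENSMUSG00000024962, minus strand of chromosome 19 from 6982473 to 6987651) is a VEGF family ligand that acts on Flt1. Its FPKM were 15.1, 19.1 and 17.0 in IgG and 18.5, 14.5 and 16.1 in anti-ITGA5 without fibronectin. With fibronectin they were 16.7, 18.0 and 14.8 in IgG and 18.4, 20.1 and 16.5 in anti-ITGA5. The groups overlapped on both surfaces. The log2 fold change was -0.053 (95% confidence interval -0.28 to 0.18, adjusted p = 0.770) without fibronectin and 0.15 (-0.050 to 0.35, adjusted p = 0.255) with it. Both intervals lie above the fold change of Vegfa on the same surface. The sign without fibronectin turned when IgG without fibronectin replicate 2 (0.035) or anti-ITGA5 without fibronectin replicate 2 (0.013) was left out.

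Pgf (ENSMUSG00000004791, minus strand of chromosome 12 from 85166635 to 85177790), the placental growth factor, had 4, 2 and 3 counts in IgG and 1, 0 and 1 in anti-ITGA5 without fibronectin. With fibronectin it had 2, 0 and 3 counts in IgG and 0, 2 and 1 in anti-ITGA5. Its FPKM without fibronectin did not overlap between the antibody groups (two-sided exact permutation test, p = 0.1, the smallest that 3 libraries against 3 allow). With 9 counts in 3 libraries against 2, no difference was detectable at this depth, and no fold change is given. Vegfc (ENSMUSG00000031520, plus strand of chromosome 8 from 54077606 to 54187096), the lymphatic VEGF, had 0 to 2 counts in every library. Counts this low are within 3 counts of 0, and they show only that the transcript was close to or under the limit of detection.

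Flt1 (ENSMUSG00000029648, minus strand of chromosome 5 from 147561604 to 147726011) encodes a VEGF receptor found on endothelium and on some monocytes. It had 26, 24 and 17 counts in IgG and 25, 11 and 24 in anti-ITGA5 without fibronectin, and the groups overlapped. With fibronectin it had 27, 35 and 29 counts in IgG and 20, 11 and 20 in anti-ITGA5, where all 3 antibody libraries were lower. The log2 fold change was -0.16 (95% confidence interval -0.90 to 0.59, adjusted p = 0.790) without fibronectin and -0.72 (-1.37 to -0.073, adjusted p = 0.0926) with it. Neither passed the test, and the intervals are wide at these counts, reaching past the fold change of Vegfa in both cases. Without fibronectin the sign turned, to 0.015, when anti-ITGA5 without fibronectin replicate 2 was left out.

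Nrp1 (ENSMUSG00000025810, plus strand of chromosome 8 from 128358604 to 128503363) and Nrp2 (ENSMUSG00000025969, plus strand of chromosome 1 from 62703285 to 62818695) encode neuropilins, co-receptors that bind VEGF and secreted semaphorins. Nrp1 was at 83.4, 79.1 and 78.4 FPKM in IgG and 72.7, 73.4 and 69.6 in anti-ITGA5 without fibronectin. With fibronectin it was at 69.4, 74.1 and 70.3 in IgG and 68.6, 62.5 and 67.3 in anti-ITGA5. The antibody libraries were below the IgG libraries on each surface, and the libraries with fibronectin were below those without it under each antibody. These shifts were small, and the antibody effect on Nrp1 did not pass the test: its log2 fold change was -0.15 (SE 0.0528, adjusted p = 0.0643) without fibronectin and -0.11 (SE 0.0438, adjusted p = 0.0821) with it. Without fibronectin it passed with DESeq2 (adjusted p = 0.00968) and without anti-ITGA5 without fibronectin replicate 2 (adjusted p = 0.00553). A single antibody effect fitted to both surfaces in edgeR was -0.13 (adjusted p = 0.00482). Nrp2 was at 89.3, 83.6 and 88.2 FPKM in IgG and 81.1, 77.8 and 80.7 in anti-ITGA5 without fibronectin, where all 3 antibody libraries were lower. With fibronectin it was at 81.5, 81.8 and 81.7 in IgG and 85.2, 78.4 and 83.0 in anti-ITGA5, and the groups overlapped. The log2 fold change of Nrp2 was -0.12 (SE 0.0496, adjusted p = 0.120) without fibronectin and 0.0080 (SE 0.0389, adjusted p = 0.906) with it, which turned to -0.016 without anti-ITGA5 with fibronectin replicate 1.

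Pdgfb (ENSMUSG00000000489, minus strand of chromosome 15 from 79995874 to 80014977) encodes the PDGF chain that attracts pericytes. Its FPKM were 12.7, 10.3 and 13.8 in IgG and 12.6, 10.7 and 12.2 in anti-ITGA5 without fibronectin, where the groups overlapped. With fibronectin they were 15.1, 15.3 and 16.7 in IgG and 11.2, 11.8 and 13.9 in anti-ITGA5. All 3 antibody libraries were below the IgG libraries there, at about the level that both treatments had without fibronectin. The log2 fold change was -0.044 (95% confidence interval -0.26 to 0.17, adjusted p = 0.797) without fibronectin and -0.36 (SE 0.0771, adjusted p = 0.00448) with it. Leaving out each library in turn gave adjusted p-values from 4.5e-05 to 0.0299 with fibronectin. Without fibronectin the sign turned without IgG without fibronectin replicate 3 (0.048) or anti-ITGA5 without fibronectin replicate 2 (0.012).

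Pdgfa (ENSMUSG00000025856, minus strand of chromosome 5 from 138976014 to 138997370) encodes the other classical PDGF chain. Its FPKM were 6.66, 6.02 and 6.33 in IgG and 5.41, 5.40 and 5.64 in anti-ITGA5 without fibronectin. With fibronectin they were 7.60, 6.98 and 8.01 in IgG and 5.19, 6.18 and 6.28 in anti-ITGA5. All antibody libraries were below the IgG libraries of the same surface. The log2 fold change was -0.20 (SE 0.0785, adjusted p = 0.0962), which did not pass, without fibronectin and -0.36 (SE 0.0925, adjusted p = 0.0124) with it. The call with fibronectin was lost without IgG with fibronectin replicate 3 (adjusted p = 0.0518) or anti-ITGA5 with fibronectin replicate 1 (adjusted p = 0.0637). Pdgfa overlaps the antisense gene 6330403L08Rik, which had 96 to 243 counts and also fell, by 0.52 (adjusted p = 0.0327) without fibronectin and 0.70 (adjusted p = 0.000824) with it on the log2 scale. The first of these calls was lost with DESeq2, with limma (adjusted p up to 0.291) and with any of 3 libraries left out (adjusted p up to 0.131), which were IgG without fibronectin replicates 1 and 3 and anti-ITGA5 without fibronectin replicate 1. The kit named in the labels does not mark strand, so reads of Pdgfa and of its antisense partner cannot be told apart where they overlap.

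Hbegf (ENSMUSG00000024486, minus strand of chromosome 18 from 36504929 to 36515805) encodes the membrane-anchored EGF family ligand. Its FPKM were 2.85, 3.00 and 3.00 in IgG and 2.52, 2.33 and 2.81 in anti-ITGA5 without fibronectin. With fibronectin they were 2.56, 2.34 and 2.64 in IgG and 3.30, 2.38 and 2.70 in anti-ITGA5. The antibody libraries were all lower without fibronectin and overlapped IgG with it. Neither difference passed the test, with a log2 fold change of -0.20 (SE 0.125, adjusted p = 0.301) without fibronectin and 0.15 (SE 0.146, adjusted p = 0.468) with it.

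**Figure D2:**
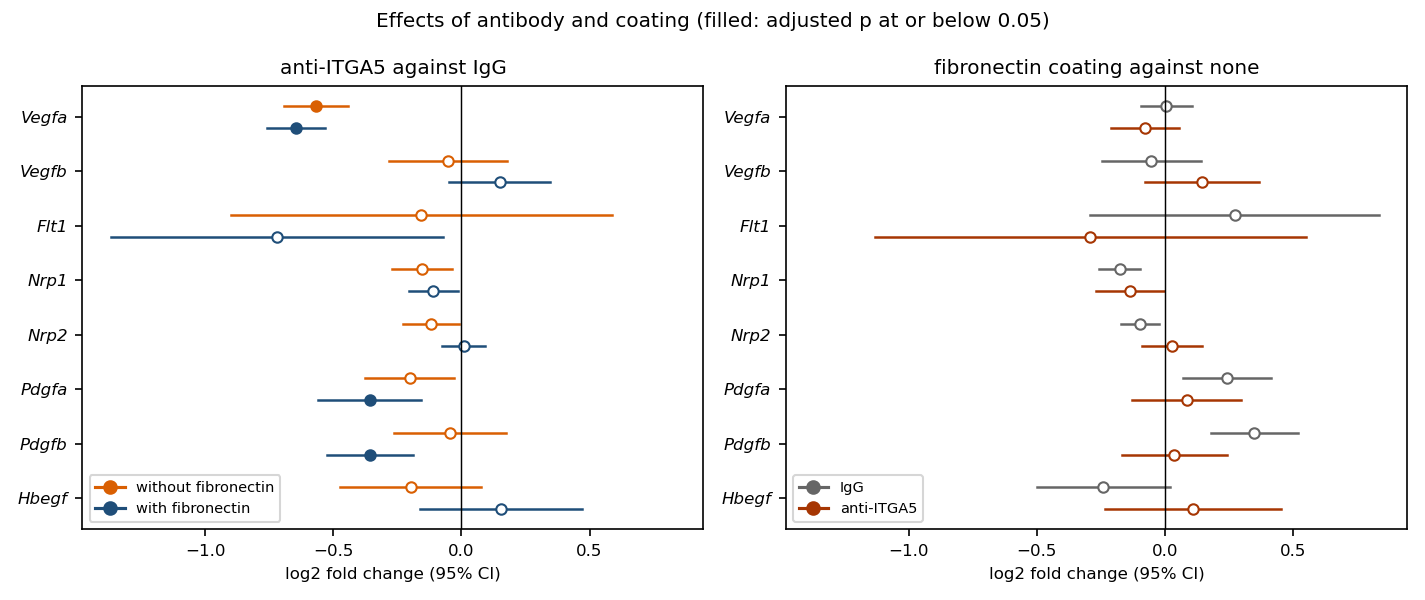
Log2 fold changes (horizontal axes) of the 8 tested members, with lines for the 95% confidence interval from edgeR. The left panel shows anti-ITGA5 against IgG on each surface and the right panel fibronectin against no coating under each antibody, with filled points at an adjusted p of 0.05 or less. Vegfa stands at -0.57 and -0.65 on the left, Pdgfa and Pdgfb are filled only with fibronectin, and no point on the right is filled.

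Whether a member changed less than Vegfa was tested directly, by scaling each library to its Vegfa count and fitting the same model. On each surface 6 of the 7 other tested members were higher relative to Vegfa, as were 79.4% of all genes without fibronectin and 84.1% with it, so the share among the members is near the background. Without fibronectin the difference from Vegfa on the log2 scale was largest for Pdgfb at 0.52 (95% confidence interval 0.30 to 0.74) and Vegfb at 0.52 (0.29 to 0.74), and smallest of the 6 for Pdgfa at 0.36 (0.14 to 0.58). With fibronectin Hbegf differed by 0.80 (0.49 to 1.12), Vegfb by 0.80 (0.59 to 1.01), Nrp2 by 0.65 (0.48 to 0.83) and Nrp1 by 0.54 (0.36 to 0.71). The called PDGF genes were closer to Vegfa there, Pdgfb by 0.29 (adjusted p = 0.00304) and Pdgfa by 0.28 (adjusted p = 0.0145). Flt1 could not be distinguished from Vegfa (adjusted p = 0.324 without and 0.836 with fibronectin).

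**Figure D3:**
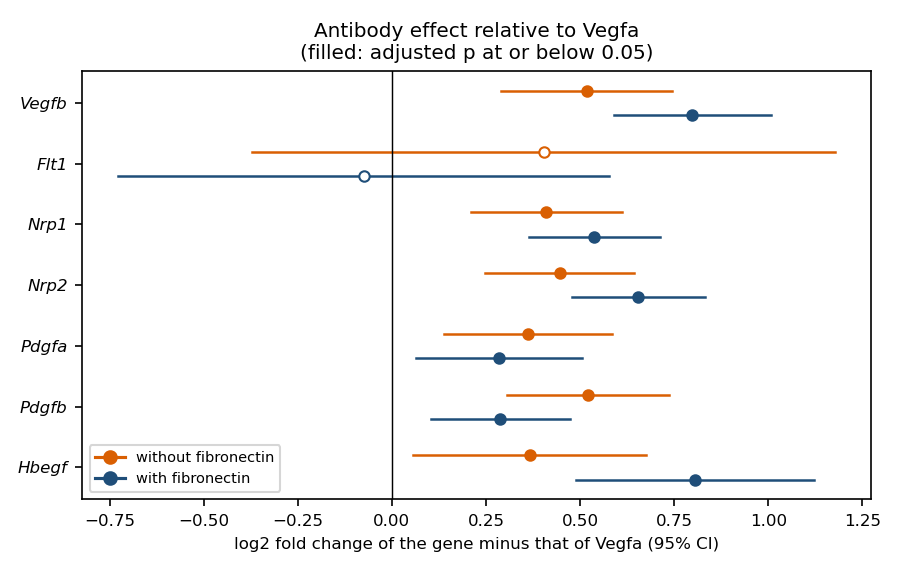
Difference between the log2 fold change of each member and that of Vegfa (horizontal axis) upon ITGA5 neutralization, without and with fibronectin, with 95% confidence intervals. Points to the right of 0 fell less than Vegfa or rose, and Flt1 is the gene whose intervals include 0 on both surfaces.

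For the coating alone, none of the members was called in the main edgeR fit. In IgG, 0 of 8 members were called, against 0.449% of 12925 genes in either direction. An unadjusted p below 0.05 in edgeR was reached by 4 members and by 1266 of the 12925 genes. DESeq2 called 1 member and limma 0. The 4 were Nrp1 at -0.18 (SE 0.0375, adjusted p = 0.0512), Nrp2 at -0.097 (adjusted p = 0.343), Pdgfb at 0.35 (SE 0.0798, adjusted p = 0.0749) and Pdgfa at 0.24 (adjusted p = 0.285). The libraries with and without fibronectin did not overlap for each of these genes, nor for Hbegf, which was lower with fibronectin. How many of all genes were separate in this way was not counted. Nrp1 was called with DESeq2 (adjusted p = 0.000607), and both Nrp1 (0.0482 and 0.0209) and Pdgfb (0.0208 and 0.0403) passed without IgG without fibronectin replicate 3 or IgG with fibronectin replicate 2. Without the filter on low counts their adjusted p-values were 0.000402 for Nrp1 and 1.6e-06 for Pdgfb. With the replicate number as a block in edgeR they were 0.000163 and 1.4e-05, so the calls of these 2 genes depend on the processing. Vegfa differed by 0.0049 (95% confidence interval -0.094 to 0.10), an interval that leaves room only for changes far smaller than that upon ITGA5 neutralization. In anti-ITGA5, 0 of 8 members were called by edgeR, 0 of 10 by DESeq2 and 0 of 7 by limma, against 0% of 12863 genes by edgeR. In edgeR 1 member (Nrp1, at -0.14, adjusted p = 0.979) had an unadjusted p below 0.05, as had 461 of the 12863 genes.

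The difference between surfaces in the antibody effect was tested as an interaction over all 12 libraries. It was called for 0 of 8 members by edgeR, 0 of 10 by DESeq2 and 0 of 7 by limma, and for 0.0223% of 13455 genes by edgeR. Pdgfb, at -0.31 (SE 0.140, adjusted p = 0.9997), was the member with an unadjusted p below 0.05 in edgeR, which 386 of the 13455 genes had. Vegfa was at -0.082 (95% confidence interval -0.25 to 0.084) and Pdgfa at -0.16 (-0.42 to 0.10). A call of Pdgfa and Pdgfb with fibronectin alone is therefore not shown to be a difference between the surfaces. A single antibody effect fitted to both surfaces was -0.28 for Pdgfa (adjusted p = 0.00156) and -0.20 for Pdgfb (adjusted p = 0.0468). The IgG libraries with fibronectin are shared by the comparison of Pdgfb between antibodies, which was lower, and that between surfaces, which was 0.35.

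Genes that act with the members were examined from lists. Of 12 other ligands of the VEGF, PDGF and EGF families (Vegfd, Pdgfc, Pdgfd, Areg, Ereg, Epgn, Tgfa, Btc, Egf, Nrg1, Nrg2 and Nrg4), only Egf and Nrg4 passed edgeR's filter on counts, and 0 were called by edgeR on either surface, with 0 at an unadjusted p below 0.05. DESeq2 gave a p-value to 9 of the 12 without fibronectin and 11 with it, and also called 0. It can leave genes of low mean count without an adjusted p-value, so this says little about them. The other 10 had at most 12 counts in any library. Of the 26 receptors and neuropilin partners, the second VEGF receptor Kdr was at 1.65 to 2.52 FPKM and did not pass the test (log2 fold change 0.074, adjusted p = 0.661, and 0.19, adjusted p = 0.314, with fibronectin). The PDGF and EGF receptors Pdgfra, Pdgfrb, Egfr, Erbb2 and Erbb4 were among 12 genes of this list with at most 10 counts in any library, so the receptors of the PDGF chains were near the limit of detection in these cells.

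Plexins, tetraspanins and adaptors that associate with neuropilins are in the same list. Without fibronectin 3 of 14 tested genes of this list were lower (Plxna1 at -0.25, Plxnd1 at -0.23 and the tetraspanin Cd9 at -0.18) and 2 higher (Gipc1, an adaptor of the neuropilin tail, at 0.20 and the syndecan Sdc4 at 0.29), against 9.79% and 11.0% of all genes. Their adjusted p-values were 0.0214 to 0.0458, and leaving out any 1 of the 3 IgG libraries removed every one of these 5 calls, with adjusted p-values up to 0.201. Leaving out anti-ITGA5 without fibronectin replicate 1 or 3 left 1 call. With fibronectin 6 of 13 were lower and 3 higher, against 13.2% and 14.4% of all genes. Plxna1 (-0.32), Cd63 (-0.23), Cd9 (-0.28), Gipc1 (0.21) and Sdc4 (0.30) kept their calls in all 17 alternatives. Plxna2 (-0.21), Plxnd1 (-0.17) and Sdc1 (-0.36) fell and Plxna3 (0.59) rose, but each lost its call with limma and when 1 library was left out, IgG with fibronectin replicate 1 for Plxna3 and replicate 2, among others, for the rest (adjusted p up to 0.171). The list's median was -0.047 without fibronectin and -0.17 with it. In IgG the coating raised Cd9 by 0.17 (adjusted p = 0.0433), a call lost on leaving out any 1 library (adjusted p up to 0.345).

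Oxygen sensing is the best known control of Vegfa, through hypoxia-inducible factors that prolyl hydroxylases mark for destruction. Of 8 tested genes of this list 2 fell and 0 rose on each surface, against 9.79% of all genes lower without fibronectin and 13.2% with it, and these 2 calls are no result about the list. Epas1, which encodes a hypoxia-inducible factor subunit, was at 6.57 ± 0.59 FPKM (SD, n = 3) in IgG and 4.43 ± 0.26 in anti-ITGA5 without fibronectin, and at 5.94 ± 0.72 and 4.34 ± 0.90 with it. Its log2 fold change was -0.57 (SE 0.0838, adjusted p = 0.000947) and -0.45 (SE 0.129, adjusted p = 0.0206), the latter lost with limma (adjusted p = 0.0820) and without IgG with fibronectin replicate 2 (adjusted p = 0.0844). Egln3, a prolyl hydroxylase that is itself induced by hypoxia, was at 15.3 ± 1.74 FPKM in IgG and 8.78 ± 0.65 in anti-ITGA5 without fibronectin, and at 17.4 ± 1.81 and 9.69 ± 0.96 with it, and was called in all 17 alternatives on each surface. Its log2 fold change was -0.79 (SE 0.0913, adjusted p = 0.000211) and -0.84 (SE 0.0910, adjusted p = 3.3e-05). Hif1a did not pass (log2 fold change -0.052, adjusted p = 0.578, and 0.066, adjusted p = 0.380, with fibronectin), and its protein was not measured. The list's median was -0.088 and -0.075.

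**Figure D4:**
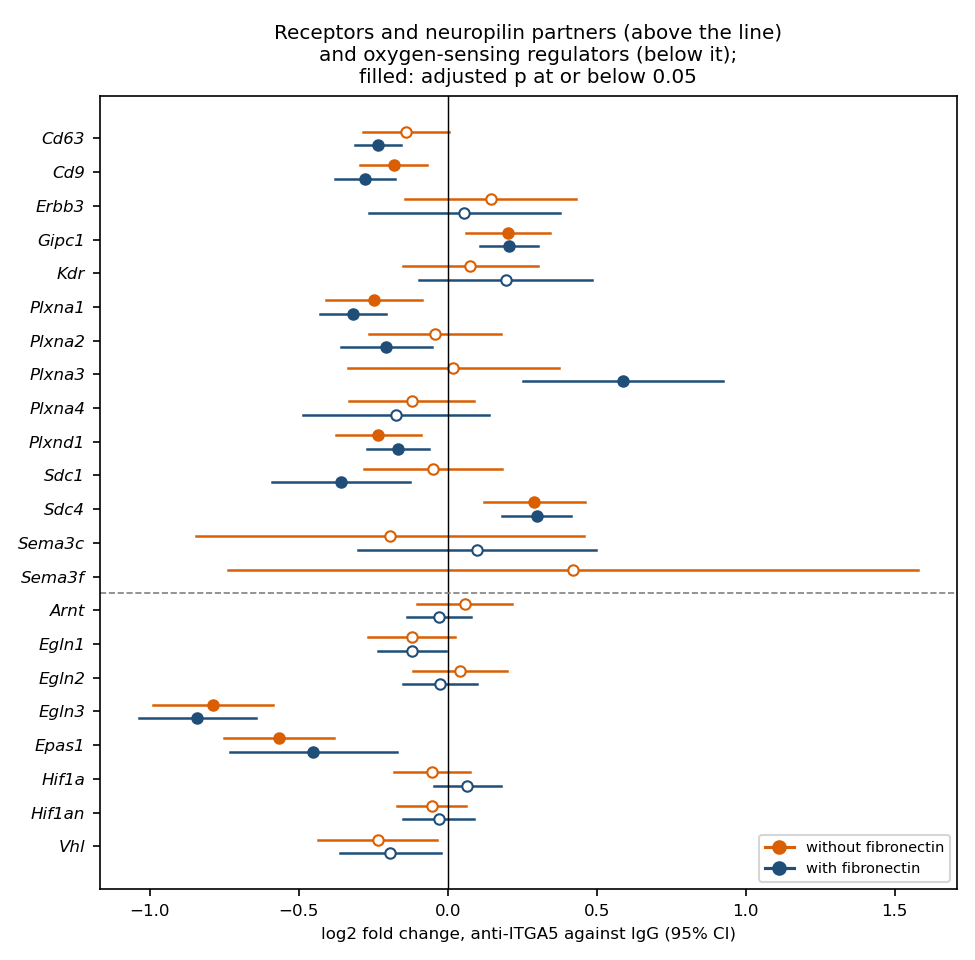
Log2 fold changes upon ITGA5 neutralization (horizontal axis) of receptors and neuropilin partners above the dashed line and of oxygen-sensing regulators below it, without and with fibronectin, with 95% confidence intervals and filled points at an adjusted p of 0.05 or less. Egln3 at -0.79 and -0.84 and Epas1 at -0.57 and -0.45 have the lowest values of the regulators, whereas Hif1a lies near 0. The intervals of Epas1 overlap those of Vhl, at -0.24 and -0.19.

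Of 10 tested proteases and cofactors that shed or process such ligands, 2 were lower and 1 higher without fibronectin and 3 lower and 1 higher with it. Of 17 tested other regulators of vessel growth, 4 were lower and 1 higher without fibronectin and 7 lower and 2 higher with it. Of all genes, 9.79% were lower and 11.0% higher without fibronectin and 13.2% and 14.4% with it. Without fibronectin the calls among proteases went from 3 to 5 when anti-ITGA5 replicate 2 was left out, and those among the other regulators from 5 to 3 when IgG replicate 3 or anti-ITGA5 replicate 1 was left out. Their medians were -0.15 and -0.025 for the proteases and -0.067 and -0.086 for the other regulators.

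The genes whose levels followed Vegfa most closely over the 12 libraries were Ell (Pearson r 0.988), Zfp397 (0.987), Hbp1 (0.983), Tef (0.982) and Nbr1 (0.981), of 10869 genes with a mean of at least 1 FPKM. The IgG and anti-ITGA5 libraries form separate sets in these values. In the same order, r was 0.309, 0.603, 0.564, 0.624 and 0.604 over the 6 IgG libraries and 0.914, 0.646, 0.778, 0.777 and 0.293 over the 6 anti-ITGA5 libraries. Among the members, Pdgfa followed Vegfa with r 0.737, at rank 1543, but with -0.177 over the IgG and 0.475 over the anti-ITGA5 libraries. Pdgfa and Pdgfb followed each other, with r 0.877 over the 6 IgG libraries and 0.692 over the 6 anti-ITGA5 libraries. These correlations are descriptions over libraries that share treatments.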

How the data were processed

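RNA of 12 macrophage cultures was sequenced on an Illumina NovaSeq. The authors deposited a table of raw read counts per gene and a table of FPKM values. The submitters' processing notes name TopHat2 2.0.9, Cufflinks 2.1.1, HTSeq 0.6.1 and the build GRCm38.p6, and the study's methods state that reads with adapters, undetermined bases or low quality were removed. The deposited FPKM equal the count divided by gene length and by 1 factor per library.

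Counts were fitted in edgeR 4.0.16 (R 4.3.3; TMM, filterByExpr with a minimum count of 10, quasi-likelihood F test) over the 6 libraries of each comparison and over all 12 for the interaction. P-values were adjusted by Benjamini-Hochberg over all genes tested, with a threshold of 0.05. The difference from Vegfa was fitted with the Vegfa count as library size. Gene names were selected by rule: all 10 members, every called gene of the ligand, receptor and oxygen-sensing lists, and the 5 genes most correlated with Vegfa on log2 CPM. Outside this rule, 6330403L08Rik was added after its values were seen because it overlaps Pdgfa. Kdr, Hif1a and the cell type markers were also named outside it. The members and lists were chosen with earlier results of these data known. Alternatives used DESeq2 1.42.0, limma 3.58.1 on log2(FPKM + 1), other scalings and filters, and left-out libraries. FPKM of Pgf were compared by an exact permutation test (two-sided, smallest p 0.1). The edgeR script was tested on simulated data. Intervals cover the spread between libraries.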

Additional observations from a re-analysis of the deposited data

How the results depend on the processing

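The fall of Vegfa kept its direction and stayed past the threshold in all 17 alternatives on each surface. Upon ITGA5 neutralization without fibronectin the number of members called went from 1 to 2 with DESeq2 and in 1 fit of all 12 libraries, to 4 with a single antibody effect over both surfaces, and lay between 1 and 2 with each library left out; with fibronectin it went from 3 to 1 with limma on log2(FPKM + 1) and no filter on low values, where Pdgfa (adjusted p = 0.0869) and Pdgfb (0.0806) were lost. For the coating in IgG it went from 0 to 1 with DESeq2 and total counts, to 2 without the filter and with the replicate block, and lay between 0 and 2 with each library left out. Small uncalled changes turned sign. With the single antibody effect Vegfb was at 0.049, Nrp2 at -0.056 and Hbegf at -0.020, and with total counts Vegfa in IgG was at -0.014 for the coating. With each library left out, the log2 fold changes without fibronectin ranged from -0.14 to 0.035 for Vegfb, -0.15 to 0.048 for Pdgfb and -0.34 to 0.015 for Flt1, and with fibronectin from -0.016 to 0.041 for Nrp2. For the coating in IgG they ranged from -0.037 to 0.041 for Vegfa and -0.13 to 0.035 for Vegfb, and in anti-ITGA5 from -0.064 to 0.11 for Pdgfb and -0.024 to 0.22 for Hbegf. The cause was not tested. Among receptors and neuropilin partners the calls went from 5 without fibronectin to 3 with total counts, 2 with limma and 0 with limma without the filter, and from 9 with fibronectin to 5 with limma. Among oxygen-sensing genes with fibronectin they went from 2 to 1 with limma and 4 with the replicate block. The single antibody effect over both surfaces called 4 of these genes, against 2 on each surface. Without fibronectin the calls went from 3 to 5 among proteases and from 5 to 10 among other regulators with the single antibody effect, and the latter to 8 in 1 fit of all libraries, 3 with limma and 1 with limma without the filter, which also took them from 9 to 2 with fibronectin. Libraries that share only a replicate number deviated together with a median correlation of 0.140 (0.0014 to 0.284, 18 pairs), and not every pair of a comparison exceeded 0.1. Pairs of different number had a median of -0.057 (-0.238 to 0.103, 36 pairs). Of these 1 exceeded 0.1, against 11 of the 18, and the main fits take no account of the replicate number. With the replicate block Nrp1 also passed in anti-ITGA5 against IgG with fibronectin (-0.11, adjusted p = 0.0298), and for the coating in IgG Nrp1 had an adjusted p of 0.000163 and Pdgfb of 1.4e-05. Depth limits Flt1, Pgf and Vegfc.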
